A study of Mus musculus with 30 samples.

Results

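Basement membranes are thin sheets of extracellular matrix that epithelial cells, and the epiblast of the early embryo, rest on. Laminins, each a trimer of an alpha, a beta and a gamma chain, form the first network on the cell surface, and type IV collagen forms a crosslinked network beside it. Nidogens and the proteoglycan perlecan tie both networks together. In the mouse embryo the extraembryonic endoderm secretes these proteins in bulk, and embryonic stem (ES) cells themselves make laminin and other matrix proteins.

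The 10 genes described here encode the laminin chains Lama1, Lama5, Lamb1 and Lamc1, the collagen chains Col4a1 and Col4a2, the nidogens Nid1 and Nid2, perlecan (Hspg2) and the secreted collagen-binding glycoprotein Sparc. They are 10 of 20286 gene symbols in the deposited expression tables, and each was found once in both. They were chosen by name with the expression values of the same contrast already known, so those values are described here and support no test. Expression was compared between mouse ES cells with floxed alleles of Tdg (Tdg fl/fl), which still carry the gene, and ES cells labelled as lacking it (Tdg -/-). Both are labelled as ES cells of the strain C57BL/6-ICR. The sources used here do not say whether either line is a single clone, or in which medium the cells for RNA were grown.

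Thymine DNA glycosylase, the product of Tdg, removes 5-formylcytosine and 5-carboxylcytosine from DNA. Polyadenylated RNA was read from 2 libraries for each genotype, but each genotype has 1 deposited FPKM value per gene (fragments per kilobase of transcript, scaled to the mapped fragments of the library). No spread between replicates can therefore be had, no difference below has a replicate check, and the sequencing depth is unknown. Tdg stood at 22.1 in fl/fl and 9.48 FPKM in Tdg -/- cells, a ratio of 0.429. These values alone do not show a deletion, since the deleted exons are not named in the labels and the value may cover exons outside them. The ES cell identity of the samples was checked against 14 marker genes found in the tables. All 14 were measured, with a summed level of 7572 in fl/fl and 7759 FPKM in Tdg -/- cells, of which Dppa5a alone made up 4571 and 4691 FPKM. The other 13 ran from Utf1, at 31.6 and 46.1 FPKM, to Tdgf1, at 720.0 and 730.2 FPKM.

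FPKM is scaled by transcript length, so levels of different genes are set side by side here. Whether other differences between transcripts affect these levels was not tested, which limits the order, the shares and the ratios between genes. In fl/fl cells Sparc was the most abundant at 436 FPKM, followed by Lamc1 at 173, Nid1 at 147, Nid2 at 109, Lama5 at 105 and Hspg2 at 77.2 FPKM. Lamb1 at 32.4, Lama1 at 12.4, Col4a1 at 5.69 and Col4a2 at 3.10 FPKM made up the lower part. The order of the 10 levels was identical in Tdg -/- cells, and it could not be asked which neighbours in it differ beyond replicate spread. The closest pair in fl/fl cells was Nid2 and Lama5, at a ratio of 1.04, which was 1.27 in Tdg -/- cells. From the highest to the lowest gene the levels spanned 141-fold in fl/fl and 95.6-fold in Tdg -/- cells. Sparc alone took 39.6% of the summed FPKM of the set in fl/fl cells, and both collagen IV chains together stood at 8.78 FPKM.

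**Figure D1:**
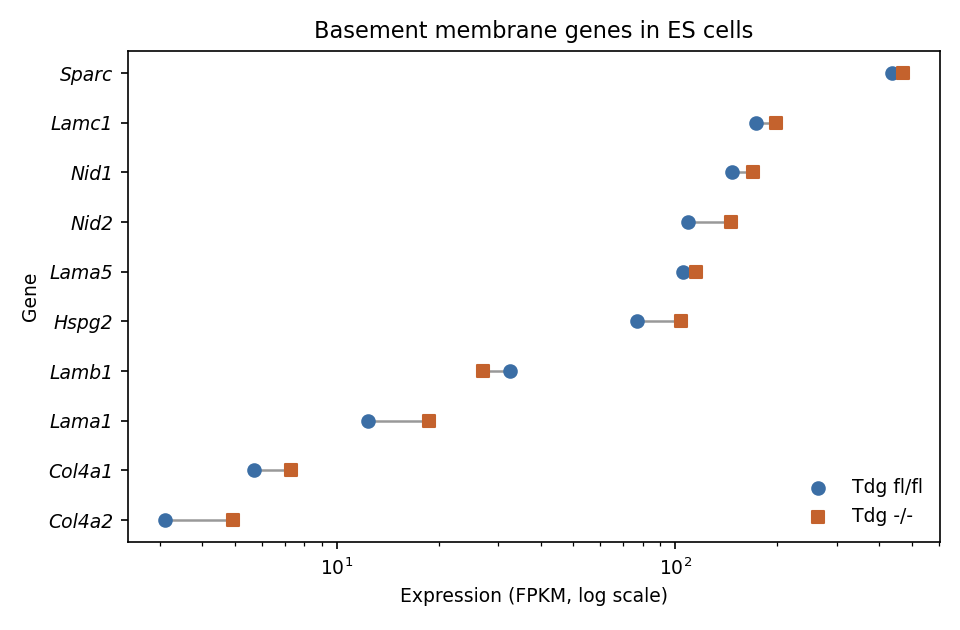
FPKM (log scale, x axis) of the 10 genes (y axis, ordered by their fl/fl level) in Tdg fl/fl (circles) and Tdg -/- ES cells (squares), 1 deposited value per gene and genotype and no error bars. The square lies to the right of the circle for 9 genes, and to the left for Lamb1 (32.4 against 27.1 FPKM).

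The set as a whole was slightly higher in Tdg -/- cells: its FPKM values summed to 1100.4 in fl/fl and 1262 in Tdg -/- cells, a ratio of 1.15. Without Sparc the sums were 665 and 792 FPKM, a ratio of 1.19. Of the 10 genes, 9 were higher and 1 was lower, where 45.1% of the 12053 genes with at least 1 FPKM in either genotype were higher. Changes are given from here as log2 of the Tdg -/- over the fl/fl value after adding 1 FPKM to each. On this scale the median change of the set was 0.26, beside -0.021 for all measured genes.

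Lama1 and Col4a2 lay at or above a change of 0.5, a 1.41-fold difference, and no member lay at or below -0.5. Over all measured genes 1.82% reached 0.5 and 1.63% reached -0.5, or 219 and 197 genes. With both tables scaled to the same sum these became 301 and 156 genes, and Lama1 and Col4a2 remained the members past 0.5. At a threshold of 0.25, 5 members were past it upward, against 8.92% of measured genes, and Lamb1 was past it downward, against 10.2%. The expression contrast was known when the members were picked, so nothing is read from these shares.

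Lama1 encodes the alpha1 chain, the alpha chain of the laminin found in the earliest embryonic basement membranes. It stood at 12.4 in fl/fl and 18.7 FPKM in Tdg -/- cells, a ratio of 1.51 and a log2 change of 0.56. Its change exceeded that of 98.8% of measured genes. Lama5 encodes the alpha5 chain, an adhesive laminin chain on which pluripotent cells can be kept in culture. It stood at 105 and 115 FPKM, a log2 change of 0.13. Lama5 was 8.48 times as abundant as Lama1 in fl/fl cells and 6.15 times in Tdg -/- cells, so Lama1 made up 10.6% and then 14.0% of their summed FPKM. The alpha1 transcript thus stayed the minor of the pair in both genotypes.

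Lamb1 encodes the beta1 chain shared by both of these laminins. It was the only member lower in Tdg -/- cells, at 32.4 and 27.1 FPKM, a log2 change of -0.25. Lamc1, the gene of the gamma1 chain shared by most laminins, stood at 173 and 199 FPKM, a change of 0.20. The ratio of Lamc1 to Lamb1 was 5.34 in fl/fl and 7.35 in Tdg -/- cells, while that of Lamc1 to Lama5 stayed at 1.65 and 1.73.

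Of the 7 other laminin chains, 4 were measured, and their median change was 0.28 (0.058 with no minimum). Lamb2, which encodes the beta2 chain, stood at 23.4 in fl/fl and 39.2 FPKM in Tdg -/- cells, a change of 0.72, the only one of the 4 at or above 0.5. The ratio of Lamb1 to Lamb2 was 1.39 in fl/fl and 0.691 in Tdg -/- cells, so the more abundant beta chain gene differed between the genotypes. Their sum was 55.8 and 66.3 FPKM. Lamb2 was once also used as a name for Lamc1, and the row was read here as the current Lamb2, of chromosome 9. Lama3, an alpha3 chain gene, stood at 6.49 and 6.47 FPKM. Summed by kind, alpha chains stood at 125 and 141 and beta chains at 57.6 and 68.5 FPKM.

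**Figure D2:**
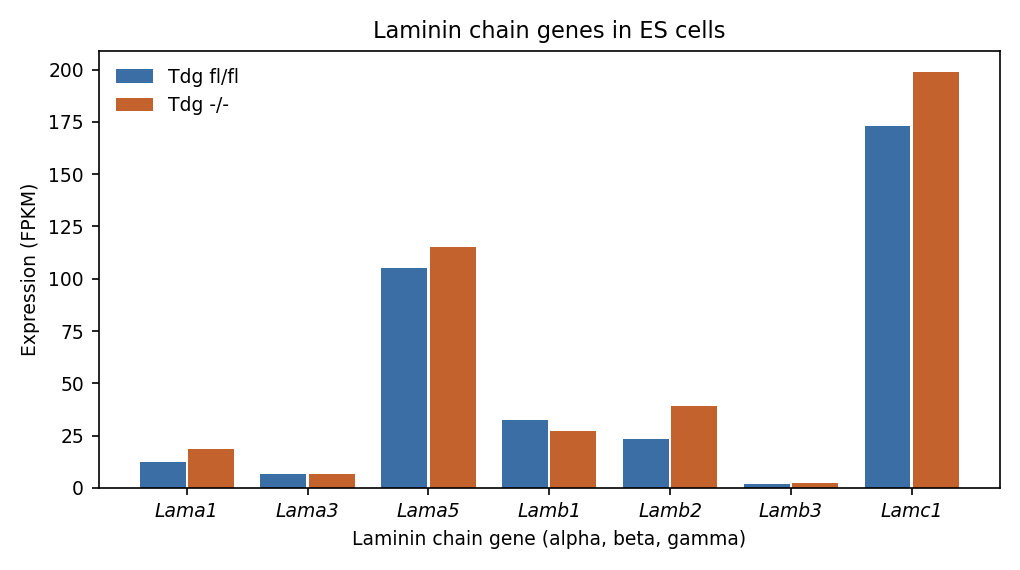
FPKM (y axis, from 0) of 7 laminin chain genes (x axis), in Tdg fl/fl and Tdg -/- ES cells, 1 deposited value per bar and no error bars. Lamb1 is above Lamb2 in fl/fl cells (32.4 and 23.4 FPKM) and below it in Tdg -/- cells (27.1 and 39.2 FPKM).

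Col4a1 and Col4a2 encode the chains of the common type IV collagen trimer, which holds more alpha1 than alpha2 chains. Col4a1 stood at 5.69 in fl/fl and 7.32 FPKM in Tdg -/- cells, a log2 change of 0.32. Col4a2 stood at 3.10 and 4.92 FPKM, a ratio of 1.59 and a change of 0.53. With a pseudocount of 0.1 FPKM its change was 0.65 and with 5 FPKM it was 0.29, since its level is low. Among the 3387 measured genes with a mean under 5 FPKM, the quartiles of the change lay at -0.10 and 0.16, and 3.22% reached 0.5. The ratio of Col4a1 to Col4a2 was 1.84 and 1.49. In Tdg -/- cells Lamc1 was still 27.2 times as abundant as Col4a1. The other 4 type IV chains, Col4a3 to Col4a6, were below 1 FPKM in both genotypes.

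The Col4a1 and Col4a2 genes lie head to head on chromosome 8 and are read in opposite directions. By the starts that RefSeq's promoter table uses (GRCm38.p6), Col4a2 at 11312805 and Col4a1 at 11312826, the stretch from one to the other holds 22 bases, both first bases included. Col4a1 also has an annotated start farther out, at 11312889, which makes that stretch 85 bases. The base composition given below for Col4a1 was counted before this outer start. The 30 bases around the 2 closer starts are shown, because both members that make up this collagen share them. They lie at chr8:11312801-11312830 on the plus strand, and the capitals mark the bases from the start of Col4a2 to the inner start of Col4a1:
Col4a1 and Col4a2 starts: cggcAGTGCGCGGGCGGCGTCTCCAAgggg
The sources used here do not say whether the counting used strand, so reads from the overlap of these transcripts may not be told apart.

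Nidogens bind laminin gamma1 and type IV collagen. Nid1 stood at 147 in fl/fl and 169 FPKM in Tdg -/- cells, a log2 change of 0.21. Nid2 stood at 109 and 146 FPKM, a change of 0.42, and the ratio of Nid1 to Nid2 was 1.34 and 1.16. Hspg2, whose protein carries heparan sulfate chains that hold growth factors, stood at 77.2 and 104 FPKM, a change of 0.42. Hspg2 and Nid2 were thus the members with the largest change among the abundant ones, each above 97.0% or more of measured genes. Among the 653 measured genes with a mean of at least 100 FPKM, the quartiles of the change were -0.20 and 0.024. All 5 members at such levels (Lama5, Lamc1, Nid1, Nid2 and Sparc) lay above the upper of these.

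Sparc, which binds type IV collagen and is needed for its normal deposition, stood at 436 in fl/fl and 471 FPKM in Tdg -/- cells, a log2 change of 0.11. Sparc is the member on chromosome 11, whose genes were mostly lower in Tdg -/- cells. Over 758 chromosome 11 genes at 5 FPKM or more the median change was -0.24, and on the other chromosomes the medians ran from -0.042 to -0.0025. The 25 measured genes nearest to Sparc had a median of -0.21, and the change of Sparc minus this median was 0.32. The neighbours of the other 9 members had medians between -0.025 and 0.095. After subtraction of the neighbours 9 members were again above 0, with a median of 0.33 over all 10. Lama5, at 0.036, then lay closest to 0, and Lama1, at 0.56, and Col4a2, at 0.53, were again past 0.5.

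**Figure D3:**
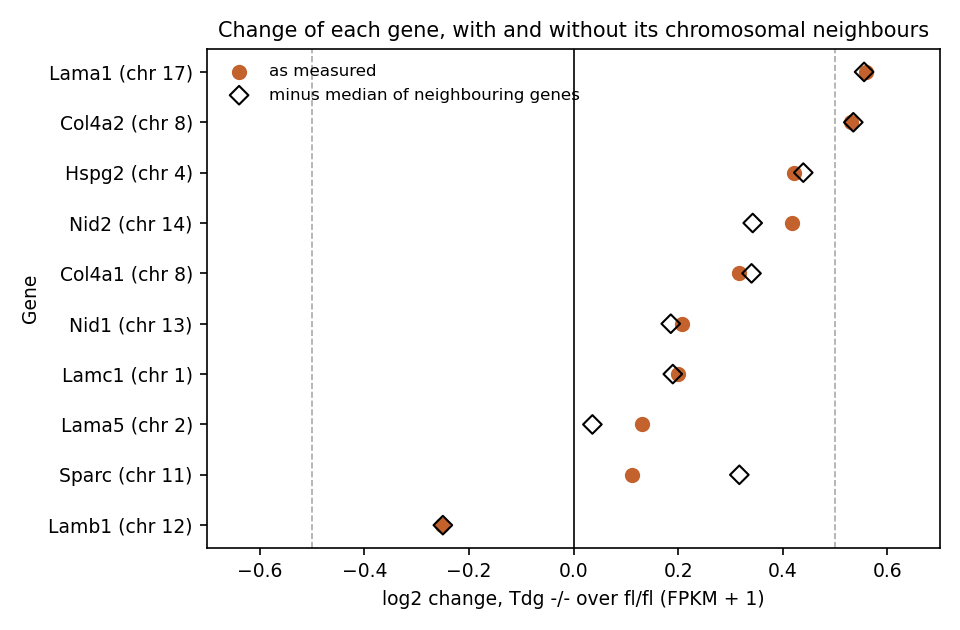
Log2 change in Tdg -/- over fl/fl ES cells (x axis, 1 FPKM added) of each gene with its chromosome (y axis), as measured (filled circles) and minus the median of the 25 nearest measured genes (open diamonds); dashed lines mark 0.5 and -0.5. Sparc moves from 0.11 to 0.32, Lamb1 stays at -0.25, and Lama1 and Col4a2 lie past 0.5 either way.

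Promoter rows were found for 7 of the 10 genes. The 100 bases before the outermost annotated start are shown for a member that was lower in Tdg -/- cells, for a pair that was higher, and for Sparc, so that their base composition can be seen. They are from RefSeq, GRCm38.p6, each 5′ to 3′ on the strand of its gene. Capitals mark the GC box, the letters GGGCGG on either strand. Lamb1 lies at chr12:31265046-31265145 (plus), Nid1 at chr13:13437502-13437601 (plus), Hspg2 at chr4:137468651-137468750 (plus) and Sparc at chr11:55420081-55420180 (minus):
Lamb1: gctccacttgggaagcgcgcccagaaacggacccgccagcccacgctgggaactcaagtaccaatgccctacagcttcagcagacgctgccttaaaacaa
Nid1: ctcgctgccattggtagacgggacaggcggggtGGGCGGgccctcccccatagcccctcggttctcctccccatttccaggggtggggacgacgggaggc
Hspg2: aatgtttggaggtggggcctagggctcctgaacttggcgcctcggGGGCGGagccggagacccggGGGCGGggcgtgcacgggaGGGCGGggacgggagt
Sparc: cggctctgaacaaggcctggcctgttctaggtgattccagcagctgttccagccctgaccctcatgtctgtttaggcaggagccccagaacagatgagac

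The stretch of Hspg2 held 3 GC boxes, that of Lama5 2, and those of Nid1 and Col4a2 1 each. Those of Lamb1, Col4a1 and Sparc held none. Over 23200 such stretches of annotated genes 22.6% held at least 1 GC box, and the matches describe these letters alone. A TATA box (TATAAA, either strand) was in none of the 7 and in 6.27% of all. The CCAAT letters, searched on both strands, were in those of Lamb1, Col4a1, Col4a2 and Nid1, and in 19.9% of all. GC content was 57% for Sparc and 59% for Lamb1, against 71% to 74% for Lama5, Col4a1, Col4a2, Nid1 and Hspg2 and a median of 53% over all stretches. Sparc had 1 CpG and Lamb1 had 6, and the other 5 members had 5 to 11.

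Of 26 other basement membrane components found, 13 were measured, 8 above and 5 below 0, with 1 at or above 0.5. Of all measured genes 45.1% lay above 0. The median of the 13 was 0.22, but 0.098 with a pseudocount of 5 FPKM, and over all 26 with no minimum it was -0.0018. That 1 was Agrn, the heparan sulfate proteoglycan agrin, at 107 in fl/fl and 158 FPKM in Tdg -/- cells (0.56). Col18a1, the gene of another basement membrane collagen, stood at 53.7 and 70.3 FPKM (0.38), and Pxdn, whose product forms crosslinks in type IV collagen, at 5.56 and 7.06 FPKM (0.30).

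The receptors of these matrices had smaller changes. Of 15 measured receptor genes 9 lay above and 6 below 0, beside 45.1% above 0 of all measured genes. None was past 0.5 in either direction, and the median was 0.080 (0.025 with no minimum). The summed level of all 20 receptor genes found was 575 in fl/fl and 673 FPKM in Tdg -/- cells. Itgb1, the integrin beta1 gene, stood at 46.5 and 62.4 FPKM (0.42). Bcam, a laminin alpha5 receptor gene, stood at 94.6 and 123 FPKM (0.38), and the integrin gene Itgav at 25.2 and 31.9 FPKM (0.33). Dag1, the dystroglycan gene, stood at 62.0 and 61.2 FPKM.

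Genes that fold, modify and crosslink collagen went both ways, with 9 of 19 measured above and 10 below 0. Above 0 lay 45.1% of all measured genes, and the median of the 19 was -0.00080. Serpinh1, the collagen chaperone of the endoplasmic reticulum, was the only one at or above 0.5, at 64.5 and 97.3 FPKM (0.59). Plod1, a lysyl hydroxylase gene, stood at 21.5 and 28.8 FPKM (0.40). P4hb, a disulfide isomerase that is also a subunit of prolyl 4-hydroxylase, was the only one at or below -0.5, at 509.8 and 234 FPKM (-1.12). P4hb lies on chromosome 11, where its 25 neighbours had a median of -0.65, and its change minus that median was -0.47. With up to 51 neighbours this difference was -0.79, so it depends on the number of neighbours. P4ha1, the catalytic partner of P4hb, stood at 15.6 and 11.6 FPKM (-0.40). The general chaperone genes Hspa5 (-0.35) and Hsp90b1 (-0.32) were lower as well.

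Matrix proteases and their inhibitors had a median of 0.13, with 11 of 15 measured genes above 0, beside 45.1% of all measured genes. Serpine2, a protease inhibitor gene, stood at 6.45 and 9.71 FPKM (0.52), Mmp15 at 3.94 and 5.67 FPKM (0.44) and the lysosomal protease gene Ctsl at 152 and 206 FPKM (0.43). Of 24 interstitial matrix genes 6 were measured, with a median of 0.20 (0.00023 with no minimum). Fn1, the fibronectin gene, was more abundant than any member, at 734 and 930 FPKM (0.34), and Vcan stood at 14.8 and 17.5 FPKM (0.22). Col6a3 was the only one at or above 0.5, at 0.462 and 1.44 FPKM (0.74). It counted as measured only through its Tdg -/- value, and with a minimum of 5 FPKM no gene of this list was at or above 0.5. Cyr61 stood at 11.9 and 12.8 FPKM.

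**Figure D4:**
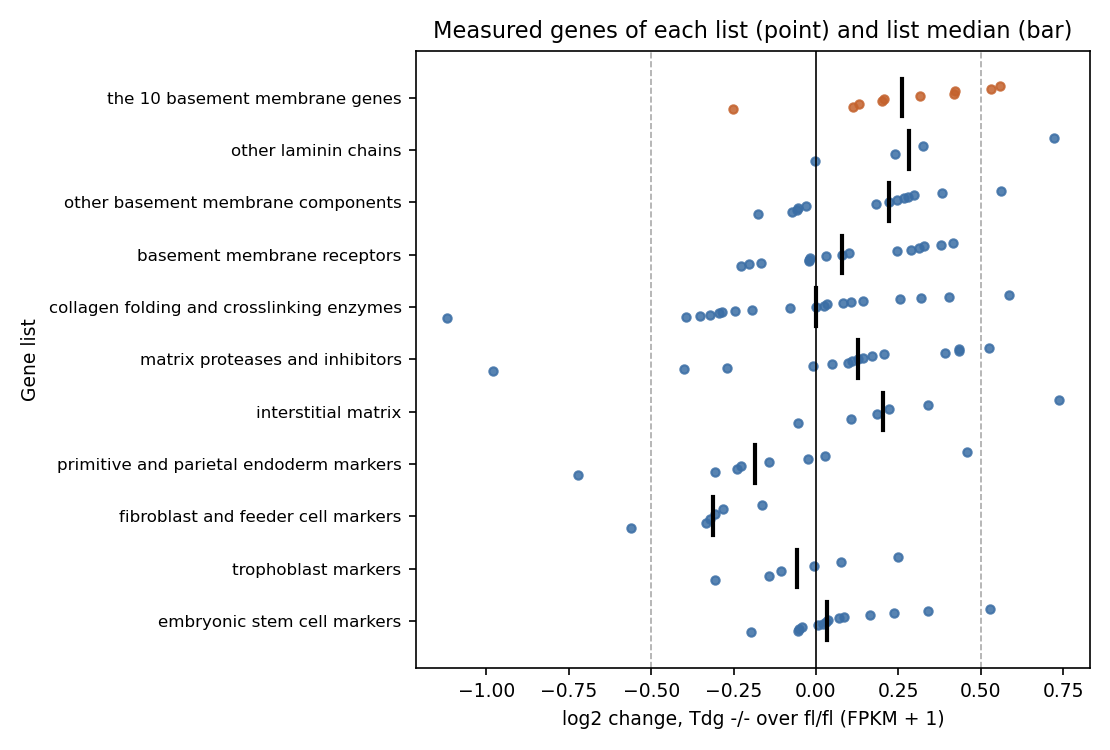
Log2 change in Tdg -/- over fl/fl ES cells (x axis, 1 FPKM added) of the measured genes of each list (y axis, 1 point per gene, black bar the list median; dashed lines mark 0.5 and -0.5). The medians run from -0.31 for fibroblast and feeder markers to 0.28 for the other laminin chains, with the 10 basement membrane genes at 0.26.

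Extraembryonic endoderm makes much of the basement membrane of the embryo, so its other markers were set beside the members. Of 24 such markers that are no members, 8 were measured, 2 above and 6 below 0. By comparison 45.1% of all measured genes lay above 0. The 8 had a median of -0.18 (-0.063 over all 24 with no minimum). The summed level of the 24 was 41.3 in fl/fl and 35.7 FPKM in Tdg -/- cells. The defining transcription factor and receptor genes were near 0 in both: Gata6 stood at 0.144 and 0.0758 FPKM, Sox17 at 0.115 and 0.0650, Sox7 at 0.0683 and 0.123, and Pdgfra at 0.511 and 0.419. Gata4 stood at 1.27 and 1.31 FPKM. Krt18 stood at 8.80 and 6.92 FPKM (-0.31) and Krt8 at 16.6 and 15.0 FPKM (-0.14), and both are trophoblast markers too. Krt19 was the only one at or below -0.5, at 2.50 and 1.12 FPKM (-0.72). It lies on chromosome 11, and its change minus that of its 25 neighbours was -0.53. Srgn, the serglycin gene, went the other way, at 1.51 and 2.45 FPKM (0.46), and passed 0.5 with a pseudocount of 0.1 FPKM or with both tables scaled to the same sum. In bulk RNA, fewer cells of a type and less RNA per cell cannot be told apart.

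Fibroblast and feeder cell markers were lower, with 6 of 6 measured genes below 0, where 45.1% of all measured genes lay above 0. Their median was -0.31 (between -0.56 and -0.036 under other settings), and all 16 listed markers summed to 28.8 and 20.1 FPKM. Vim, the vimentin gene, was the only one at or below -0.5, at 16.3 and 10.7 FPKM (-0.56). With a minimum of 5 FPKM only Vim was left, so the median of -0.56 is its value alone. Of 16 listed, 10 were under 1 FPKM in both genotypes, among them both type I collagen genes, and Lum and S100a4 were listed at 0 in both. Of 12 trophoblast markers 6 were measured, none past 0.5 in either direction, with a median of -0.056 and 35.9 and 32.6 FPKM in sum. With a minimum of 5 FPKM the median was -0.22, from Krt8 and Krt18 alone. The part of such cells in the levels of the members was not tested. Among the ES cell markers Utf1 (0.53), Tbx3 (0.34) and Sox2 (0.24) had the largest changes, and the median of the 14 was 0.034.

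With only 2 values per gene, likeness to a member means a similar level and a similar difference. Among genes with at least 5 FPKM, those closest to Lama1 by the distance between their pairs of log2(FPKM + 1) values were Cacna1a (distance 0.054), Klhdc10 (0.061) and S100a1 (0.075). Closest to Lamb1 were Tmem199 (0.010), Gins1 (0.016) and Spag5 (0.017).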

How the data were processed

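Polyadenylated RNA of Tdg fl/fl and Tdg -/- ES cells was read from 2 libraries per genotype. The authors deposited 1 FPKM table per genotype, which per the labels covers both libraries. Per the submitters' processing notes, the tools include TopHat 1.4.1 and Cufflinks 1.3.0 and the build is mm9. The sources used here do not say how the 2 libraries became 1 value. Of 20437 rows, those with the same symbol were summed, giving 20286 symbols, of which 20133 matched RefSeq (GRCm38.p6), 2113 of them through a synonym. Among low values (above 0 and under 0.1 FPKM in both tables) the commonest ratio of Tdg -/- over fl/fl was 0.661, held by 36 of 2176 rows. Whether such rows hold single reads was not tested, so the depth stayed unknown.

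After adding 1 FPKM to both values, changes were taken as log2 of Tdg -/- over fl/fl, a scale that understates those of low genes. Genes with at least 1 FPKM in either genotype were measured, and those past 0.5 were counted. No p-value was computed, since each genotype has 1 value. Chromosomal neighbours were up to 25 measured genes in RefSeq order. The calculation was tested on simulated data with little noise, whose changes were larger than 0.5 and lay in well expressed genes. That test covers neither changes near 0.5 nor low genes. Python 3.11.15, pandas 2.3.3 and matplotlib 3.10.9 were used.

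The members and lists were chosen with earlier results of these data known. Named were the members, Tdg, up to 3 genes per list, by largest absolute change among those with at least 5 FPKM, and any list gene changed by at least 1. Dag1, P4ha1, Hspa5, Hsp90b1, Col6a3, Lum, S100a4, Krt19, Gata4, Gata6, Sox7, Sox17, Pdgfra, Srgn, Dppa5a, Tdgf1 and Tnc were named outside this rule after their values were seen, and some list genes are not reported here. Lists of 5fC, 5hmC and p300 regions are given on mm9 and the gene positions at hand on GRCm38.p6, so regions were not tied to genes and were not used here. Alternatives were other pseudocounts, FPKM minimums, thresholds, scalings, neighbour numbers and the highest row of a symbol. The scaling to the same sum, and alternatives for 4 of the chain ratios, were chosen after seeing the data.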

Additional observations from a re-analysis of the deposited data

How the results depend on the processing

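Each of the 10 members kept its sign under the 7 alternatives run for it, with changes of 0.45 to 0.62 for Lama1, 0.29 to 0.65 for Col4a2, 0.11 to 0.32 for Sparc and -0.26 to -0.19 for Lamb1. Other pseudocounts, and the highest row of a symbol where each member has 1 row, could not have changed a sign. Ratios of Lama5 to Lama1, Lamc1 to Lamb1, Lamc1 to Lama5, Lamb1 to Lamb2, Lamc1 to Col4a1, Col4a1 to Col4a2, Nid1 to Nid2 and Nid2 to Lama5 moved by less than 1.5 times in all 48 alternatives run, and the summed level of the members in all 6. Of these alternatives only quantile normalization altered the ratios. Scaling to the same sum cancels within a genotype, and the highest row left both the ratios and the sums as they were. A pseudocount of 5 FPKM left 0 members at or above 0.5, and 55 and 78 genes past it upward and downward in place of 219 and 197. It also gave medians of 0.098 for other basement membrane components and -0.13 for fibroblast markers, and left 0 genes past 0.5 upward among proteases, interstitial matrix and ES markers, and 0 downward among proteases, endoderm and fibroblast markers. A pseudocount of 0.1 FPKM gave 410 and 330 genes, a fibroblast median of -0.45, and 2 proteases and 1 endoderm marker past 0.5 upward. A minimum of 5 FPKM left 1 member past 0.5 (Lama1, since Col4a2 is below the minimum), 118 genes upward, medians of -0.56 for fibroblast and -0.22 for trophoblast markers, and 0 interstitial genes upward and 0 proteases and endoderm markers downward. These medians rest on Vim alone and on Krt8 and Krt18 alone. With no minimum the medians were 0.058 for other laminin chains, -0.0018 for other basement membrane components, 0.00023 for interstitial matrix, -0.063 for endoderm and -0.036 for fibroblast markers. Thresholds of 0.25 and 1 gave 5 and 0 members upward and 1 and 0 downward, with 1075 and 22 genes upward and 1231 and 21 downward. Quantile normalization gave 2 proteases past 0.5 upward. Scaling to the same sum gave 2 proteases and 1 endoderm marker upward and 0 fibroblast markers downward. Without chromosome 11, 124 genes were past 0.5 downward, and 63.2% of the genes past it were higher, against 52.6% with it and 65.9% after scaling to the same sum. Where a value moved, the cause was not tested. No paired analysis was possible because each genotype has 1 deposited value per gene. The alternatives of the marks at the members were not run, as no gene positions on mm9 were at hand. Depth is unknown, so the counting error of low genes such as Col4a2 could not be given.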

Other observations

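Of the interstitial matrix genes below the minimum, Tnc, the tenascin C gene, was listed at 0.0112 in fl/fl and 0.362 FPKM in Tdg -/- cells. Both values are low, and with no read numbers no error can be given for them.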
